A study of Homo sapiens with 16 samples.

Results

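The 9 genes described here carry out the synthesis, storage, reuptake and breakdown of catecholamines: TH, DDC, DBH, PNMT, GCH1, SLC18A1, SLC18A2, SLC6A2 and MAOA. They were chosen by gene symbol, as 9 of the 63187 genes in the count table, and all 9 were among the 19530 genes that passed the filter on low counts. RNA-seq was done on SK-N-BE(2) cells, a line established from a human neuroblastoma that carries extra copies of MYCN. The 16 libraries fall into 4 groups of 4, and each group has 1 library in each of the batches 1 to 4, which are also the replicate numbers. WT libraries came from cells labelled wild type. The other 3 groups came from the same line transfected with a form of HIF-2α, the oxygen-regulated transcription factor encoded by EPAS1: the full-length protein (FL), the form written ΔN-CTAD in the study design (NCTAD) and the form written Δc-IDR (cIDR), both read here as lacking the named region. All cells grew at 21% oxygen in medium with 10% serum. The labels do not give the deleted residues, the vector, the time after transfection or an empty-vector control, so transfection as such and HIF-2α cannot be told apart in a comparison with WT. The labels do not state separate cultures beyond the batch, so p-values measure the spread between these libraries.

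Catecholamines are made from tyrosine. TH, the rate-limiting enzyme, uses oxygen, iron and tetrahydrobiopterin to make L-DOPA, DDC converts L-DOPA to dopamine, DBH converts dopamine to noradrenaline inside vesicles, and PNMT converts noradrenaline to adrenaline. GCH1 catalyses the first step of tetrahydrobiopterin synthesis. SLC18A1 and SLC18A2 are the vesicular monoamine transporters, SLC6A2 is the noradrenaline transporter of the cell surface, and MAOA is a mitochondrial enzyme that oxidises monoamines. Neuroblastoma arises from the sympathoadrenal lineage, whose cells make noradrenaline. In RefSeq's annotation of GRCh38.p14 the genes lie apart: TH (ENSG00000180176) at chr11:2163929-2171815, DDC (ENSG00000132437) at chr7:50458442-50565405 and DBH (ENSG00000123454) at chr9:133636363-133659329. PNMT (ENSG00000141744) lies at chr17:39668019-39670475, GCH1 (ENSG00000131979) at chr14:54842017-54902826 and SLC18A1 (ENSG00000036565) at chr8:20144855-20183136. SLC18A2 (ENSG00000165646) lies at chr10:117241114-117279430, SLC6A2 (ENSG00000103546) at chr16:55655988-55706192 and MAOA (ENSG00000189221) at chrX:43655006-43746817.

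Each library held between 38.6 and 56.1 M (mega) counts in total. EPAS1, which checks the labels, held 13.0, 28.1, 17.3 and 14.3 CPM (counts per 1 M counts) in WT batches 1 to 4 and between 1320 and 5852 CPM in the 12 transfected libraries. The column names of the tables call the line BE2c, FL wild type and WT control, and write NTAD where the labels have N-CTAD, so the region that the NCTAD form lacks rests on the labels and the study design. Samples were grouped by their own labels. EPAS1 separated the libraries labelled WT from the rest, but its CPM ranges overlapped between FL, NCTAD and cIDR. Within batches its CPM was higher in cIDR than in NCTAD (ratio 1.38 to 1.85) and than in FL (1.09 to 2.41) in 4 of 4. The ratio of NCTAD to FL was 0.66 to 1.3. The CPM range of EPAS1 alone thus does not check those labels against each other. The 8 neuroblastoma markers, among them HAND2, GATA3, MYCN, CHGA, CHGB, GAP43 and STMN2, summed to 5740 to 6730 TPM (transcripts per 1 M) in every library. None of the 8 was called against WT, where at most 0.497% of all genes were. Schwann cell markers summed to 4.36 to 8.96 TPM, with SOX10 at 0 in 13 of 16 libraries, and mesenchymal markers to 15.7 to 32.6 TPM, with PRRX1 at 0 in 13. Fewer cells that express a gene and less RNA per cell cannot be told apart in these bulk libraries.

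On the TPM scale, which divides by transcript length, the median over the 16 libraries was 262 for DDC (227 to 326) and 233 for DBH (160 to 396). These ranges overlapped, but within libraries the order of DDC and DBH went with the batch. In batch 2 DBH was above DDC in every group, at 277 against 271 TPM in WT and 386 against 308 in FL. The batch 2 values were 396 against 326 TPM in NCTAD and 373 against 313 in cIDR. In the other batches DDC was the higher in every library except cIDR batch 1, at 247 against 262 TPM for DBH. SLC6A2 came next with a median of 143 TPM (82.6 to 163), whose highest value only just reached the lowest of DBH. Within each library SLC6A2 was below DBH. SLC18A1 had a median of 64.9 TPM (37.3 to 110) and GCH1 40.4 TPM (33.5 to 62.3), and each overlapped its neighbour above. TH, the rate-limiting enzyme, stood below all of these in every library, with a median of 2.44 TPM (0.926 to 11.2). SLC18A2 had a median of 1.27 TPM (0.828 to 2.7), MAOA 0.543 TPM (0.292 to 1.03) and PNMT 0.271 TPM (0.0895 to 0.628), and each of these ranges overlapped the one above it. SLC18A1 was the vesicular transporter with the higher level in every library, since its lowest TPM lay above the highest of SLC18A2. PNMT rested on 2 to 16 counts per library and MAOA on 36 to 62, which limits what can be said of both.

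**Figure D1:**
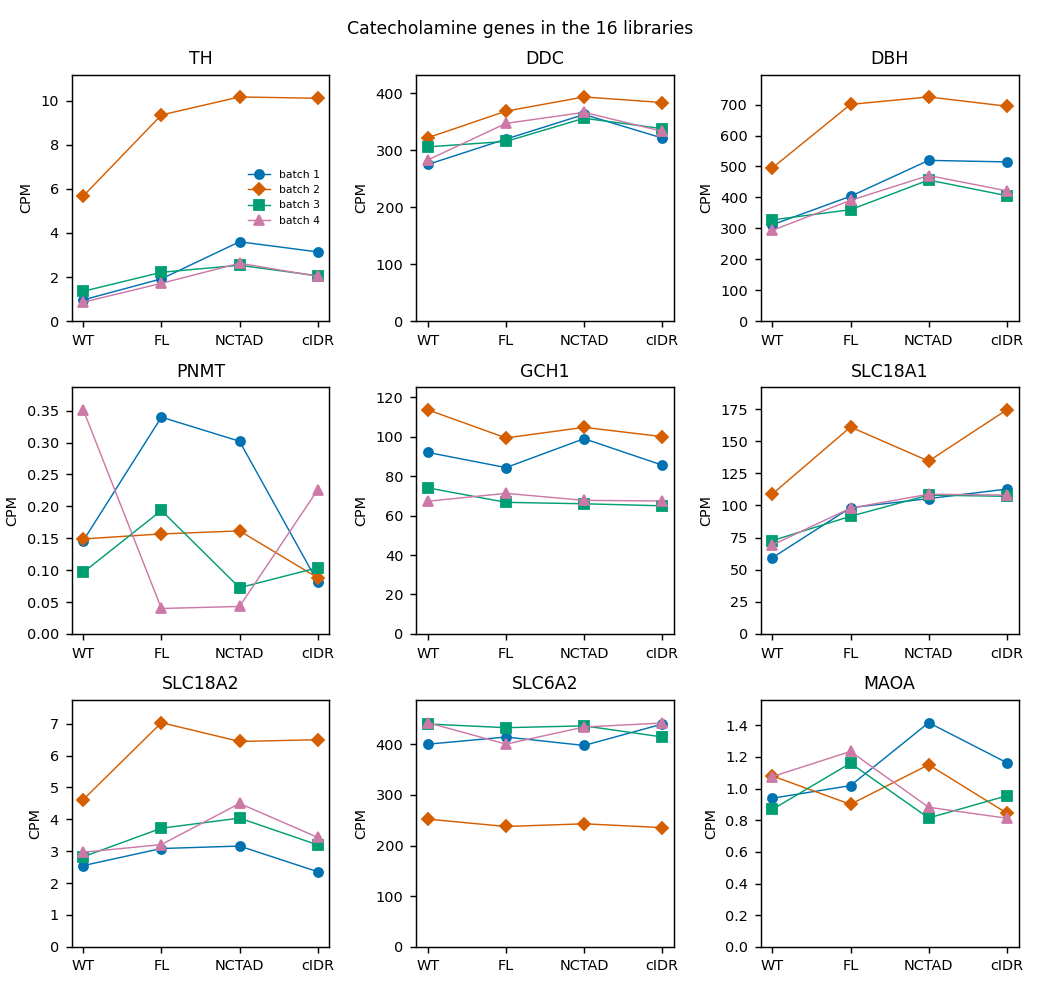
CPM of each of the 9 genes (y axis, linear, 1 panel per gene) in the WT, FL, NCTAD and cIDR libraries (x axis), with a marker and line for each batch. Batch 2 lies above the other batches for TH, at 5.68 to 10.2 CPM against 0.856 to 3.6, and below them for SLC6A2, at 235 to 252 CPM against 398 to 443.

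Promoter windows of 300 bases, from 250 before to 50 after a transcription start (RefSeq, GRCh38.p14), were matched for 4 of the 9 genes: DDC, DBH, SLC18A2 and MAOA. TH, PNMT, GCH1, SLC18A1 and SLC6A2 were not matched. The DBH, DDC and SLC18A2 windows are shown because these genes differ in how their RNA varied between groups and batches. Each is written 5′ to 3′ on the strand of the gene, and capitals mark letters found on either strand: the hypoxia response core (ACGTG or GCGTG, or their complements) and the cyclic AMP response element core (TGACG or its complement) or full element TGACGTCA, which contains that core on both strands, overlapping. DBH lies on the plus strand of chromosome 9, with its window at chr9:133636113-133636412. The DDC window shown lies on the minus strand at chr7:50565356-50565655, and that of SLC18A2 on the plus strand at chr10:117240864-117241163.
DBH: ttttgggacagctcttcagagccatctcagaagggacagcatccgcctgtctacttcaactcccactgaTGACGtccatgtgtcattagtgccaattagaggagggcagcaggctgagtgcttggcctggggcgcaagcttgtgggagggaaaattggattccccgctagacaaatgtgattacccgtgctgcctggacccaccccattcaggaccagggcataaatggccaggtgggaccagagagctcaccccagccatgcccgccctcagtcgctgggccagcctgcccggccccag
DDC: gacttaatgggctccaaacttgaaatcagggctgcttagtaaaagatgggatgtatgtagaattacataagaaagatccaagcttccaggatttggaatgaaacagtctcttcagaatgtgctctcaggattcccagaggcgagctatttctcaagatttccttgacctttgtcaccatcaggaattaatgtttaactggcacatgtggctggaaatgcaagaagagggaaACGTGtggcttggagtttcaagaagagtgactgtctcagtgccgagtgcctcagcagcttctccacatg
SLC18A2: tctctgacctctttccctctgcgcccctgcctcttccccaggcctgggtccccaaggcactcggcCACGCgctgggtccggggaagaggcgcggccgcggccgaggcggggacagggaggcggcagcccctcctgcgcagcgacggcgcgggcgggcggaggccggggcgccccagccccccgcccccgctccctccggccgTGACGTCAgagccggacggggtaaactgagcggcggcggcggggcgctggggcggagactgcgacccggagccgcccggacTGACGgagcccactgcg

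The DBH window held 1 cyclic AMP response core, at position −181 from the start, and no hypoxia response core. The DDC window shown held the hypoxia response core once, at −19. A window at a second DDC start, at chr7:50561022-50561321, is not shown and held neither motif. Which of these starts the cells used was not tested. The SLC18A2 window held the hypoxia core once, as CACGC at −185, the full element at −48 and a further cyclic AMP response core at 34. The MAOA window held the hypoxia core once, at 28. Of 35116 windows of the same length, 48.4% held the hypoxia core, 24.6% the cyclic AMP response core and 1.85% the full element, so a match to either core is common. These matches describe letters and show no binding.

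The first question was whether catecholamine genes differed between cells with a HIF-2α form and WT cells of the same batch. TH, DBH and SLC18A1 rose with NCTAD and with cIDR, DDC rose with NCTAD, and SLC18A1 also rose with FL. The largest of these rises was that of TH, at 2.42-fold with NCTAD, and the others were 1.25-fold to 2.09-fold. None of the 9 genes was called lower with any construct. The calls come from edgeR's quasi-likelihood test in a fit with group and batch, at a threshold of 0.05 on the p adjusted by Benjamini-Hochberg over all 19530 genes. With FL 1 of the 9 was called higher, against 0.0717% of all genes tested. With NCTAD 4 of 9 were called higher against 0.42%, with cIDR 3 of 9 against 0.456%, and in the mean of the 3 constructs 4 of 9 against 0.451%. In either direction 0.102%, 0.456%, 0.486% and 0.497% of all genes were called in these 4 comparisons, and 0.0307%, 0.0358%, 0.0307% and 0.0461% were called lower. The median log2 fold change of the 9 genes was 0.19, 0.32, 0.21 and 0.24 in these 4 comparisons, beside 0.01, 0.02, 0.01 and 0.01 over all genes. These comparisons share the WT libraries. Without the batch in the fit, 0 of 9 were called in each, beside 0.0102%, 0.0256%, 0.0102% and 0.0154% of all genes.

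TH, which makes L-DOPA, held 0.96, 5.68, 1.35 and 0.856 CPM in WT batches 1 to 4, and 1.92, 9.36, 2.21 and 1.71 CPM in FL. NCTAD libraries held 3.6, 10.2, 2.53 and 2.62 CPM, and cIDR libraries 3.14, 10.1, 2.05 and 2.03 CPM. In each batch WT was the lowest of the 4 libraries. The groups overlapped across batches, since WT batch 2 exceeded every transfected library of the other batches. The ratio of TH to WT in the same batch was 1.64 to 2 with FL, 1.79 to 3.75 with NCTAD and 1.52 to 3.27 with cIDR. By edgeR the log2 fold change was 1.27 ± 0.173 (SE, 4 libraries per group, adjusted p = 0.0022) with NCTAD. It was 1.06 ± 0.174 (adjusted p = 0.00953) with cIDR and 0.83 ± 0.174 (adjusted p = 0.121) with FL, which was not called. The cIDR value of TH was not called without the first WT library (adjusted p = 0.0539), nor without batch 1 (0.0502), batch 2 (0.0995) or batch 4 (0.102). The NCTAD value lost its call without batch 4 (adjusted p = 0.0566).

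DDC, which makes dopamine, held 275, 322, 306 and 283 CPM in WT batches 1 to 4 and 319, 368, 315 and 347 CPM in FL. NCTAD libraries held 363, 393, 356 and 366 CPM and cIDR libraries 321, 384, 338 and 333 CPM. All 4 NCTAD libraries lay above all 4 WT libraries, whereas FL and cIDR libraries overlapped WT through WT batch 2. The edgeR log2 fold change of DDC was 0.32 ± 0.0463 (SE, adjusted p = 0.00336) with NCTAD, which was called. It was 0.19 with FL (adjusted p = 0.296) and 0.21 with cIDR (adjusted p = 0.0675), each with an SE of 0.0463. The DDC call with NCTAD was lost without batch 4 (adjusted p = 0.0553) and in limma on log2(TPM + 1), where the value was 0.23 (adjusted p = 0.334). DDC with cIDR was called in DESeq2 (adjusted p = 5e-04), among genes with at least 10 counts in every library (edgeR, 0.0375), and without the WT library of batch 3 (0.032) or the FL library of batch 1 (0.017) or batch 4 (0.0327).

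DBH, which makes noradrenaline, held 311, 496, 327 and 293 CPM in WT batches 1 to 4 and 404, 701, 360 and 390 CPM in FL. NCTAD libraries held 520, 725, 456 and 471 CPM and cIDR libraries 515, 695, 406 and 421 CPM. WT was the lowest library of every batch, and WT overlapped each construct through its batch 2 library. DBH was higher by 0.61 ± 0.0665 (log2, SE, edgeR adjusted p = 0.00035) with NCTAD and by 0.51 ± 0.0665 (adjusted p = 0.00131) with cIDR. With FL its log2 fold change was 0.36 ± 0.0664 (adjusted p = 0.0681), which was not called. The DBH calls with NCTAD and cIDR were kept without any single library and without any single batch.

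SLC18A1, a vesicular monoamine transporter, held 59.3, 109, 72.6 and 69.3 CPM in WT batches 1 to 4 and 98.2, 161, 91.5 and 97.9 CPM in FL. NCTAD libraries held 105, 134, 108 and 109 CPM and cIDR libraries 113, 174, 107 and 108 CPM. Outside batch 2 every transfected library, from 91.5 to 113 CPM, lay above every WT library, from 59.3 to 72.6 CPM. SLC18A1 was called with each construct, by 0.53 ± 0.0778 with FL, 0.59 ± 0.0778 with NCTAD and 0.70 ± 0.0779 with cIDR (log2, SE), with edgeR adjusted p of 0.0117, 0.00189 and 0.000507. The FL call was lost without the WT library of batch 1 (adjusted p = 0.0653) or batch 4 (0.062), and without the FL library of batch 2 (0.091). It was also lost without the whole of batch 1 (0.133), batch 3 (0.0737) or batch 4 (0.127), and in limma on log2(TPM + 1) (adjusted p = 0.0846). Other settings called further genes with FL: TH and DBH with no low-count filter (edgeR adjusted p of 0.028 and 0.00507), and TH, DBH and DDC in DESeq2 (adjusted p of 0.00918, 0.000297 and 0.0165).

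Outside batch 2 the 9 transfected libraries lay above the 3 WT libraries for 4 of the 9 genes: TH (1.71 to 3.6 against 0.856 to 1.35 CPM), DDC (315 to 366 against 275 to 306), DBH (360 to 520 against 293 to 327) and SLC18A1. Of all tested genes 0.661% had this order, and 0.256% had the opposite one, which none of the 9 genes had. The same 4 genes were higher with each construct than in WT in 4 of 4 batches, a pattern held by 1.33% of all tested genes. Together they cover the steps from tyrosine to noradrenaline and the loading of vesicles.

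**Figure D2:**
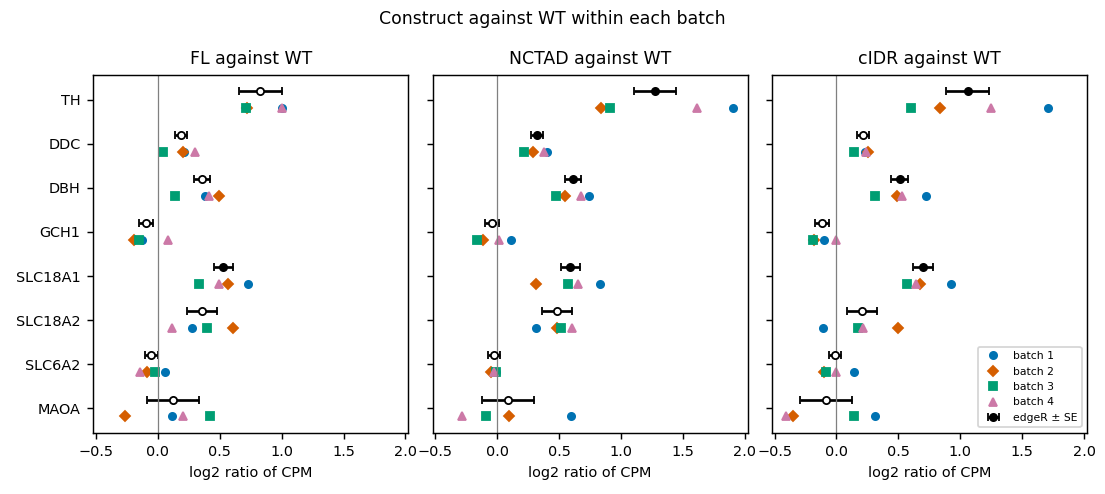
Log2 ratio of CPM in a transfected library to WT of the same batch (x axis, same scale in the 3 panels) for 8 genes (y axis), with a coloured marker per batch and the edgeR estimate ± SE in black, filled where called and white where not. TH, DDC, DBH and SLC18A1 lie above 0 in 4 of 4 batches with each construct, while GCH1 and MAOA lie on both sides of 0 with each construct, as SLC6A2 does with FL and cIDR (with NCTAD its 4 ratios are 0.964 to 0.994); PNMT is left out for its low counts.

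The other 5 genes were not called with any construct. SLC18A2 held 2.55, 4.62, 2.82 and 2.96 CPM in WT batches 1 to 4, 3.08, 7.03, 3.72 and 3.21 CPM in FL, and 3.16, 6.44, 4.04 and 4.5 CPM in NCTAD. In cIDR it held 2.36, 6.5, 3.2 and 3.43 CPM. It was above WT in 4 of 4 batches with FL and NCTAD and in 3 of 4 with cIDR, but its NCTAD value, 0.48 ± 0.121 (log2, SE), had an edgeR adjusted p of 0.163. SLC6A2, which takes noradrenaline back up, held 400, 252, 440 and 443 CPM in WT, 414, 238, 433 and 400 CPM in FL, 398, 243, 436 and 434 CPM in NCTAD and 440, 235, 414 and 442 CPM in cIDR. Its 95% intervals against WT lay within −0.16 and 0.09 (log2) for all 3 constructs, so a change as large as that of TH or DBH lies outside them.

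GCH1 held 92.1, 114, 74.1 and 67.3 CPM in WT batches 1 to 4, 84.4, 99.4, 66.8 and 71.3 CPM in FL, 99, 105, 66 and 67.8 CPM in NCTAD and 85.6, 100.1, 65 and 67.4 CPM in cIDR. The groups overlapped, and the intervals of GCH1 against WT lay within −0.24 and 0.08 (log2). MAOA ranged from 0.813 to 1.42 CPM over the 16 libraries with overlapping groups, and its intervals against WT reached from −0.53 to 0.57 (log2). PNMT ranged from 0.0398 to 0.351 CPM, where a count of 0 in a library would allow up to 0.0528 to 0.0812 CPM, and its intervals reached from −1.94 to 1.31. A difference in PNMT or MAOA was thus not detectable at this depth unless it was large.

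The second question was whether the constructs differed from each other. None of the 9 genes was called in the 3 comparisons between constructs, where the share of all genes called was 0% (NCTAD against FL), 0.0307% (cIDR against FL) and 0.00512% (the pair of cIDR and NCTAD). At an unadjusted p under 0.05 the edgeR counts over all genes were 721, 718 and 419. TH, DDC and DBH were each higher in NCTAD than in FL, and lower in cIDR than in NCTAD, in 4 of 4 batches, comparisons that share the NCTAD libraries. Of all tested genes 6.02% were higher in NCTAD than in FL in 4 of 4 batches and 6.03% were lower in cIDR than in NCTAD. GCH1 was also lower in cIDR than in NCTAD in 4 of 4 batches, and SLC18A1 was higher in cIDR than in FL, as were 4.87% of all tested genes. The NCTAD minus FL difference was 0.45 for TH (95% interval 0.09 to 0.80), 0.13 for DDC (0.03 to 0.23) and 0.25 for DBH (0.11 to 0.40) on the log2 scale, with an edgeR adjusted p of 0.996 for each. Between cIDR and NCTAD the log2 difference was −0.22 for TH (−0.57 to 0.14), −0.11 for DDC (−0.20 to −0.01) and −0.10 for DBH (−0.24 to 0.04), with an adjusted p of 1. SLC18A1 differed by 0.06 (−0.11 to 0.22) between NCTAD and FL and by 0.17 (0 to 0.33) between cIDR and FL. The calls against WT with NCTAD and not with FL therefore do not show that the constructs differ.

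Batch 2 stood apart. TH was 4.43-fold higher in batch 2 than in the mean of batches 1, 3 and 4, SLC18A2 1.9-fold, DBH 1.62-fold, SLC18A1 1.53-fold, GCH1 1.39-fold and DDC 1.12-fold. SLC6A2 fell to 0.57 of its level in the other batches. By edgeR 6 of 9 genes were called higher and 1 lower, but 27.7% of all genes were called higher and 26.1% lower, 53.9% in all, so a call as such says little about these genes. Batch 2 was singled out with these results known, and 4 libraries of 1 batch are not replicates of a batch condition, so the p-values describe these libraries only. The labels call it a batch and do not say what differed in it.

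TH had a log2 difference of 2.15 ± 0.122 (SE, edgeR adjusted p = 3.11e-09), and 230 of the 19530 genes had a larger rise. Its 4 batch 2 libraries, at 5.68 to 10.2 CPM, lay above the other 12, at 0.856 to 3.6 CPM. The rise of TH was present in each group: the ratio of batch 2 to the mean of the other batches was 5.38 for WT, 4.81 for FL, 3.49 for NCTAD and 4.2 for cIDR. The WT library of batch 2, which received no construct by its label, thus held more TH than any transfected library of another batch. SLC18A2 also separated without overlap, at 4.62 to 7.03 CPM against 2.36 to 4.5 CPM, with a log2 difference of 0.93 ± 0.0923 (SE, edgeR adjusted p = 9.68e-07).

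DBH (0.69 ± 0.0521, log2, SE) and SLC18A1 (0.62 ± 0.061) rose in batch 2 by edgeR with adjusted p of 5.51e-08 and 8.98e-07. Their ranges met those of the other libraries, at 496 to 725 against 293 to 520 CPM for DBH and 109 to 174 against 59.3 to 113 CPM for SLC18A1. DDC rose by 0.17 ± 0.0374 (log2, SE, edgeR adjusted p = 0.00157), and its ranges overlapped. GCH1 rose by 0.48 ± 0.0445 (adjusted p = 4.65e-07), with 99.4 to 114 CPM in batch 2 just above the highest of the other libraries, at 99. The GCH1 values of batch 1 were also high, at 84.4 to 99 CPM, whereas batches 3 and 4 held 65 to 74.1 CPM.

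SLC6A2 was the only one of the 9 genes called lower in batch 2, by −0.81 ± 0.0422 (log2, SE, edgeR adjusted p = 1.22e-09), and 513 genes had a larger fall. Its batch 2 libraries held 235 to 252 CPM and the other 12 held 398 to 443 CPM. The ratio of batch 2 to the others was 0.589 for WT, 0.571 for FL, 0.575 for NCTAD and 0.545 for cIDR. The reuptake transporter thus moved against the enzymes TH and DBH and both vesicular transporters in every group. MAOA (−0.04, adjusted p = 0.845) and PNMT (−0.21, adjusted p = 0.766) were not called. For the absence of overlap the background was 14.4% of all genes above and 14.6% below, beside 3 genes above (TH, GCH1, SLC18A2) and 1 below (SLC6A2).

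**Figure D3:**
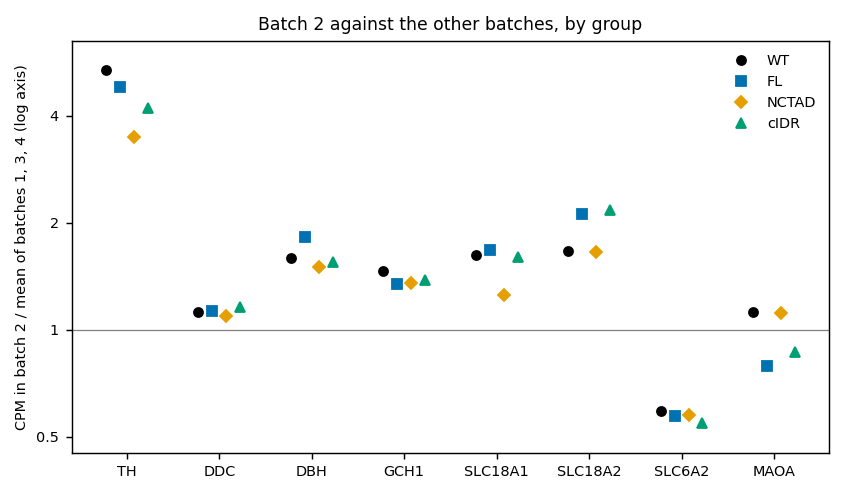
CPM in the batch 2 library divided by the mean CPM of batches 1, 3 and 4 of the same group (log axis) for 8 genes, with a marker per group. TH lies at 3.49 to 5.38, SLC6A2 at 0.545 to 0.589 and MAOA near 1; PNMT is left out for its low counts.

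Whether the construct effect itself differed in batch 2 was tested with 1 further term. None of the 9 genes was called, beside 0.00512% of all genes, and 304 genes had an unadjusted p under 0.05 in edgeR. The log2 difference was −0.38 for TH (95% interval −1.03 to 0.28), 0.03 for DBH (−0.25 to 0.31) and −0.11 for SLC18A1 (−0.43 to 0.21), with an adjusted p of 1 for each. A single WT library anchors these values, so their intervals are wide. For EPAS1 the value was −1.89 (adjusted p = 0.0998), with WT at its highest and NCTAD and cIDR at their lowest in batch 2.

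Other genes of the pathway were described as lists, which were chosen with results of these data known. Of 12 genes that respond to hypoxia in many cells, 0 were called with FL, 5 with NCTAD, 7 with cIDR and 5 in the mean of the constructs, all higher, beside the shares of all genes called higher given above (0.0717%, 0.42%, 0.456% and 0.451%). Without the batch in the fit 0 of 12 were called in each of these comparisons. VEGFA, a growth factor for blood vessels, rose by 0.80 ± 0.0957 and NDRG1 by 2.03 ± 0.296 in the mean of the constructs (log2, SE, edgeR adjusted p of 0.000788 and 0.00364). In batch 2 11 of these 12 were higher, beside 27.7% of all genes, with a list median of 1.33 beside 0.04 over all genes. PDK1, which restrains pyruvate oxidation, and BNIP3 had the smallest adjusted p of the list there, with log2 differences of 2.81 and 1.73, and NDRG1 had the largest difference, 3.27. These values moved with those of TH, and their part in the batch 2 difference was not tested.

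In the mean of the constructs 0 of 7 further genes of the tetrahydrobiopterin pathway, 0 of 10 for vesicles and cofactor supply, 0 of 10 for TH phosphorylation, 0 of 11 transcription factors of the lineage and 0 of 5 tested catecholamine receptors were called, beside 0.497% of all genes, so that 0 says little about lists of this size. Of 6 tested genes of breakdown and uptake, SLC29A4, a low-affinity monoamine transporter, was higher by 0.33 ± 0.061 (log2, SE, edgeR adjusted p = 0.0216), and was not called without the batch in the fit. MAOB, the other monoamine oxidase, was at 0 counts in 14 of 16 libraries. In batch 2, against the same background of 53.9%, the tetrahydrobiopterin list had 2 genes higher and 5 lower. GCHFR, which encodes a regulator of GCH1, was at 1.31 ± 0.349 (log2, SE) and QDPR at 0.22, higher as GCH1 was, and PCBD2 at −0.62. GCHFR rested on 2 to 32 counts per library, which limits what can be said of it. The vesicle and cofactor list had 0 higher and 6 lower, with CYB561, which supplies electrons for DBH, at −0.46 and ATP6AP1, a part of the vesicular proton pump, at −0.39.

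Of all genes 27.7% were called higher in batch 2 and 26.1% lower, which is the background for each list below. SLC29A4 was higher there by 1.91, and its list had 3 genes higher and 1 lower. That one, SULT1A3, was at −1.29, but it has a near-identical copy among which reads may be split. The TH phosphorylation list had 4 higher and 5 lower, with CAMK2A at 1.31. Transcription factors of the lineage had 5 higher and 5 lower, with GATA3 at −0.80 and EGR1, an immediate early gene, at 1.20. Of the receptors, ADRA2C was lower, at −0.89. Of the neuroblastoma markers 4 were higher and 3 lower in batch 2, with GATA3 at −0.80 and STMN2 at 0.56, while their summed TPM, 5930 to 6180, lay within the range of the other batches. Schwann markers had 1 of 4 tested genes higher, S100B at 0.74, and mesenchymal markers had 2 higher and 2 lower of 5, with COL1A1 at 1.31 and CD44 at −0.57. Their summed levels in batch 2 were 6.94 to 8.96 and 21.7 to 25.4 TPM, beside 4.36 to 8.12 and 15.7 to 32.6 TPM in the other batches, and the part of other cell types in the batch 2 difference was not tested.

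Across the 16 libraries log2 CPM of TH and DBH had a Pearson r of 0.969, TH and SLC18A1 0.908, and DBH and SLC18A1 0.93. TH and SLC6A2 had an r of −0.863, and MAOA had an r with TH of 0.0231. These libraries share batches and groups, so r is given as a description. Among 12373 other genes with a symbol and a mean log2 CPM of at least 1, those most like TH were SMIM3 (0.978) and ZNF395 (0.97), and those most like DBH were MYADM (0.973) and RGS4 (0.971). For SLC18A1 they were NDRG1 (0.956) and TRIM29 (0.95), for SLC18A2 GAS2L1 (0.956) and COL18A1 (0.955), and for DDC ELFN1 (0.947) and LMO1 (0.905). GCH1 was most like CNKSR3 (0.972) and NEURL1 (0.964), and SLC6A2 was most like SRSF6 (0.993) and SGK1 (0.991). The highest values were lower for MAOA, with NDUFAF3 at 0.732, and for PNMT, with PDZD4 at 0.712, the genes of lowest count.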

How the data were processed

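RNA was measured by stranded, poly(A)-selected RNA-seq in 16 libraries. Per the labels' protocols the input was 250 ng and amplification ran for 13 cycles. The authors deposited estimated counts per gene, not scaled to depth or length, and TPM values. The submitters' processing notes name fastp, STAR, Salmon and featureCounts and the build GRCh38, without versions; the annotation release is not given in the sources used here. The EPAS1 count joins reads of the cells' own gene with those of the construct. Positions and promoters came from RefSeq tables of GRCh38.p14, and 4 of 9 genes matched a promoter.

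Estimated counts, of which 13.1% were not whole within 0.001, were rounded. The filter filterByExpr by group kept 19530 genes. edgeR 4.0.16 (R 4.3.3) ran the quasi-likelihood test with TMM normalization and 1 model with group and batch over all libraries, with Benjamini-Hochberg adjustment over all genes tested. CPM used TMM-scaled library sizes, and log2 CPM a prior count of 2. The SE is the absolute log2 fold change over the root of F. A count of 0 allows 3 counts, for counting error only.

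The labels give the replicate number as a batch, so batch is a block. Deviations from group means correlated with a mean r of 0.308 in the 24 pairs of the same number (0.0674 to 0.712) and −0.151 in the others. The biological coefficient of variation was 0.108 with the block and 0.245 without. No 2 libraries of a group were copies, with a chi-square per degree of freedom of at least 7.24.

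All 9 genes are named, with EPAS1, the 2 called genes of smallest adjusted p in each further list, in the mean of the constructs and in batch 2, and the 2 genes most like each member. Further genes of a list are named as examples, and some genes that the rule names are not reported here. The 9 genes, the lists and batch 2 were chosen with earlier results of these data known. Alternatives were no replicate block, size factors by the median of ratios, all genes with any count, only genes with 10 or more counts in each library, DESeq2 1.42.0, limma 3.58.1 on log2 TPM with a pseudocount of 1 or 0.1, calls only past an absolute log2 fold change of 1, and each library or batch left out. Figures used matplotlib 3.10.9 in Python 3.11.15.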

Additional observations from a re-analysis of the deposited data

Results flagged for a closer look

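Of 36 sets of 4 libraries, 1 for each gene and group, 13 had a library whose gap to its nearest neighbour, divided by the range, exceeded Dixon's critical value; chance gives about 1 in 20. In 12 of the 13 it was the library of batch 2, in which 53.9% of all genes were called against the other batches, so the chance rate is not the background for these genes. TH was highest there in WT (5.68 CPM), FL (9.36), NCTAD (10.2) and cIDR (10.1). DBH was highest in WT (496 CPM) and FL (701), and SLC18A1 in FL (161 CPM), NCTAD (134) and cIDR (174). SLC18A2 was highest in FL (7.03 CPM), and SLC6A2 was lowest in FL (238 CPM) and cIDR (235). The exception was PNMT in cIDR batch 4, at 0.226 CPM, which rests on 10 counts.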

How the results depend on the processing

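The labels pair the groups by batch, and the block decides the calls: with no replicate block 0 genes were called with FL, 0 with NCTAD, 0 with cIDR and 0 in the mean of the constructs, against 1, 4, 3 and 4. With FL the count was 3 with no low-count filter, 4 in DESeq2, 0 in limma on either TPM scale and 0 with a minimum absolute log2 fold change of 1. The share of all genes called was obtained only for the edgeR fits with and without the batch. Counts in the other settings therefore have no background beside them. That minimum left 1 gene with NCTAD, 1 with cIDR, 1 in the mean of the constructs (TH in each) and 1 in batch 2, where 7 had been called. With a library or batch left out, the count ran from 0 to 2 with FL, from 2 to 4 with NCTAD, from 2 to 4 with cIDR and from 2 to 4 in the mean of the constructs. The count of 2 came without batch 4 with NCTAD and in the mean, and with cIDR without the WT library of batch 1 or without batch 1, 2 or 4. DDC in the mean of the constructs had adjusted p of 0.0691, 0.0616 and 0.0746 without WT libraries 1, 2 and 4, and 0.102 and 0.0843 without batches 2 and 4. In limma on log2(TPM + 1) and log2(TPM + 0.1) DDC there was 0.17 on both scales, with adjusted p of 0.4 and 0.42. TH had 0.056 without batch 4. Beyond these the cause of a lost call was not tested.

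None of the 19 called values changed sign. In limma on log2(TPM + 1) and log2(TPM + 0.1), MAOA was −0.17 and −0.38 with FL, −0.21 and −0.51 with NCTAD, and −0.18 and −0.42 in the mean of the constructs. DDC was −0.017 on both scales for cIDR against FL, and PNMT was 0.032 in batch 2 on log2(TPM + 0.1). With a library or batch left out, MAOA ran from −0.10 to 0.20 with NCTAD, from −0.21 to 0.018 with cIDR, from −0.065 to 0.12 in the mean of the constructs and from −0.12 to 0.046 in batch 2. PNMT ran from −0.41 to 0.51 with FL, from −0.88 to 0.15 with NCTAD, from −1.10 to 0.17 with cIDR, from −0.67 to 0.28 in the mean of the constructs and from −0.44 to 0.041 in batch 2. SLC6A2 ran from −0.064 to 0.014 with cIDR, and DDC from −0.003 to 0.059 for cIDR against FL. For the construct effect in batch 2 against the others, DBH ran from −0.062 to 0.098, DDC from −0.045 to 0.046 and SLC18A1 from −0.20 to 0.01. Depth limits PNMT, with 2 to 16 counts, and MAOA, with 36 to 62.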
